A study of Mus musculus with 15 samples.

Results

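The 33 genes described here encode the regulators, motors and scaffold of the motile cilium together with markers of the ependymal cells that carry it. They are Foxj1, Ccno, Deup1, Dnah5, Dnah9, Dnah11, Dnah6, Dnah12, Dynlrb2, Zmynd10, Ccdc39, Ccdc40, Drc1, Rsph1, Rsph4a, Lrrc23, Hydin, Spag17, Cfap54, Cfap65, Tekt1, Tekt4, Cfap52, Cfap126, Pifo, Cfap43, Cfap44, Ak7, Ak9, Ccdc153, Fam183b, Tmem212 and Mlf1. They were picked by gene symbol, and all 33 were found among the 54232 genes of the count table. All 33 also passed the filter on low counts, which left 18278 genes. Striatal RNA came from 15 mice, all 6 months old and each giving 1 library, of the genotypes WT (7 mice), E1 (4) and KI-96 (4). Toxicity of RAN translation (initiation within an expanded repeat and not at a start codon) in mice with a Huntington's disease knock-in is the subject named in the study's title. The alleles behind the names E1 and KI-96 are not described in the labels, which name no treatment and do not give the sex of the animals.

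Motile cilia are beating cell extensions built on a ring of microtubule doublets around a central pair of microtubules. Dynein arms on the doublets drive the beat, radial spokes and nexin links coordinate it, and Foxj1 and RFX transcription factors switch on the genes for these parts. In the brain they are carried by ependymal cells, a single layer of multiciliated cells that lines the ventricles and moves cerebrospinal fluid; the striatum borders the lateral ventricle. In RNA from a whole piece of tissue, fewer ependymal cells and less RNA per ependymal cell cannot be told apart.

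Promoter sequence was available for 28 of the 33 genes as 33 windows of 300 bases, from 250 bases before to 50 bases after a transcription start (RefSeq, build GRCm38.p6). Foxj1, Rsph1, Rsph4a, Cfap54 and Cfap65 had no entry. The half-site of the X-box, the element that RFX factors bind, was searched as GTTGCC and its reverse complement GGCAAC. It was present in 15 of the 33 windows (45.5%), against 12.5% of all 32851 windows. The fuller palindrome, GTNNCC and GGNNAC with any 2 bases between them, was present in 7 of 33 (21.2%) against 1.88%, and its matches can share bases with a half-site. The forkhead core TGTTTA, or TAAACA on the other strand, was present in 10 of 33 (30.3%) against 13.4%, and the CCAAT box (CCAAT or ATTGG), taken as a general promoter element, in 13 of 33 (39.4%) against 37.4%. These forms were chosen after several had been counted, so the shares are a description. The stretches printed here are 80 bases from upstream of a start annotated by RefSeq, 5′ to 3′ on the gene's strand with the half-sites in capitals. The first 5 belong to genes with large negative log2 fold changes between KI-96 and E1, and the last 2 to Drc1, which differed little, and Ccno, which had a positive value there.
Tekt1: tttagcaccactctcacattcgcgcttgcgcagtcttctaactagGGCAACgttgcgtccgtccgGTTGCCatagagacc
Mlf1: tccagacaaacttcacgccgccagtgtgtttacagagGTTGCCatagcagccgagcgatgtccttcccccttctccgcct
Fam183b: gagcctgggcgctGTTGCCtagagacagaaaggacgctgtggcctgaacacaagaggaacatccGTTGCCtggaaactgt
Ccdc153: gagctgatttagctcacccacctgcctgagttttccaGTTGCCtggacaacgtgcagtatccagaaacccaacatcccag
Dynlrb2: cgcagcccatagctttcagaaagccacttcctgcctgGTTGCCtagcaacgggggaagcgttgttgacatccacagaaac
Drc1: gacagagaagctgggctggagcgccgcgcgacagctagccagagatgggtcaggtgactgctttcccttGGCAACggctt
Ccno: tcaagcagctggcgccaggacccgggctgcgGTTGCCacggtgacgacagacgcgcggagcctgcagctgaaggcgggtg

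The Tekt1 stretch is chr11:72361883-72361962 on the minus strand and carries 2 half-sites. That of Mlf1 is chr3:67373955-67374034 on the plus strand, where a forkhead core lies upstream of the half-site. Fam183b is shown at chr11:58801961-58802040 (minus strand), also with 2 half-sites, and Ccdc153 at chr9:44240488-44240567 (plus strand). Dynlrb2 is shown at chr8:116504927-116505006, Drc1 at chr5:30281313-30281392 and Ccno at chr13:112987552-112987631, all on the plus strand. In the annotation used for the counts, the Tekt1 stretch lies within the gene's span, and the stretches of Dynlrb2 and Drc1 reach past its start. Stretches were printed only where a half-site lay upstream, so its presence in them cannot be set against the differences between the groups. Tmem212, Cfap52, Cfap43 and Ak7, also with large negative values between KI-96 and E1, had no half-site in their windows. A match in a window says nothing of whether a factor is bound there.

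Total counts ranged from 14678565 to 26388542 per library, and the 33 genes together took from 1878 counts in KI-96 replicate 1 to 8917 in WT replicate 7. Markers of striatal spiny projection neurons were high in all 15 libraries: the dopamine receptor genes Drd1 (162 to 336 CPM, counts relative to the normalized library total) and Drd2 (183 to 360 CPM), and Ppp1r1b (894 to 2447 CPM). Slc17a7, the vesicular glutamate transporter of cortical excitatory neurons, ranged from 5.97 to 91.0 CPM in 12 libraries but reached 816 CPM in WT replicate 3 and 914 and 597 CPM in E1 replicates 2 and 3. Y-linked genes summed to 158 to 205 CPM in WT replicates 2 to 7 and to at most 0.132 CPM in WT replicate 1, all 4 E1 and all 4 KI-96 libraries. Xist, the RNA of the inactive X chromosome, went the other way. It was 1065 CPM in WT replicate 1, 933 to 1204 in E1 and 891 to 1626 in KI-96, and at most 3.00 in WT replicates 2 to 7. By these reads WT replicates 2 to 7 were male, and WT replicate 1 and all mutant mice female. Genotype against WT and sex can therefore hardly be told apart. WT replicates 5, 6 and 7 and KI-96 replicate 3 stand apart in ways given beside the genes they touch.

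Across the 3 comparisons none of the 33 genes passed an adjusted p of 0.05 by the quasi-likelihood test of edgeR with Benjamini-Hochberg adjustment over all genes. The genes nevertheless lay on 1 side of 0 in the KI-96 comparisons. Against E1, 32 of 33 had a negative log2 fold change in KI-96 (50.6% of all genes tested did) and 1 a positive one (49.4%), and the median was -0.81, beside -0.00 over all genes tested. Against WT, 32 of 33 were negative in KI-96 (background 52.1%) and 1 positive (47.9%), with a median of -0.59, beside -0.01 over all genes. In E1 against WT 27 of 33 were positive (background 49.7%) and 6 negative (50.3%), with a median of 0.25. In that comparison none of the 33 had groups that did not overlap (background 0.892% higher, 0.799% lower). The comparisons share libraries, so their values stand side by side and do not support each other.

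**Figure D1:**
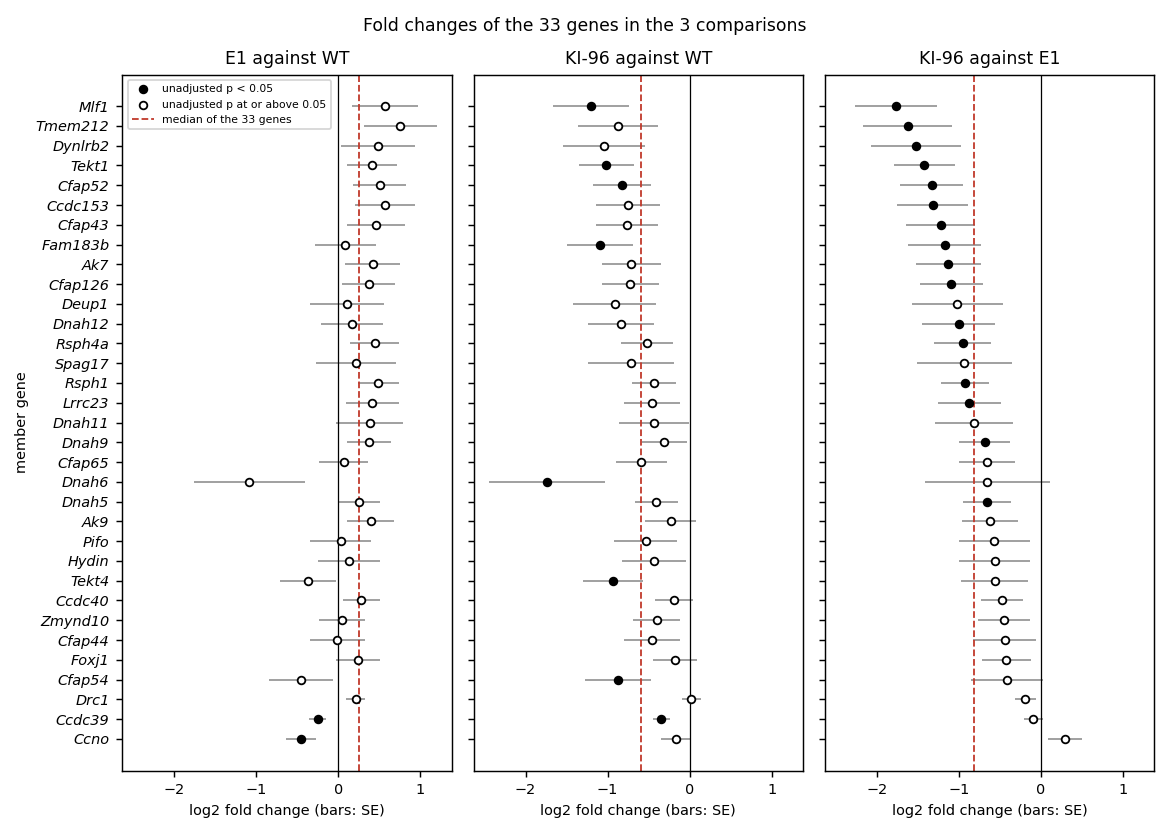
Log2 fold changes of the 33 genes (vertical axis) in E1 against WT, KI-96 against WT and KI-96 against E1 (horizontal axes, bars are the SE of the edgeR fit), with filled points for an unadjusted p under 0.05 and a dashed line at the median of the 33. The medians stand at 0.25, -0.59 and -0.81, and filled points number 2, 8 and 16.

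Few genes were called at all. Over all 18278 genes edgeR called 1 gene (0.00547%) in E1 against WT and 0 (0%) in either KI-96 comparison. At an unadjusted p under 0.05, 16 of the 33 genes were lower and 0 higher in KI-96 than in E1, where the background was 6.42% of all genes lower and 7.84% higher. In KI-96 against WT 8 were lower and 0 higher (background 4.68% and 5.80%). In E1 against WT 2 were lower and 0 higher (background 5.06% and 3.69%). The smallest adjusted p among the 33 was 0.178 in KI-96 against E1, 0.326 in KI-96 against WT and 0.519 in E1 against WT. DESeq2 called 2 of the 33 lower in KI-96 than in E1, Tekt1 (adjusted p = 0.0255) and Mlf1 (adjusted p = 0.0358). Over all genes it called 82 lower there (0.475% of those with an adjusted p) and 120 higher. In the other comparisons DESeq2 called 0 of the 33, and limma-voom called 0 of them in each comparison. Over all alternatives run, the adjusted p in KI-96 against E1 ranged from 0.0255 to 0.539 for Tekt1 and from 0.0358 to 0.539 for Mlf1. At an unadjusted p under 0.05 DESeq2 had 17 of the 33 lower in KI-96 than in E1 (background 3.86% of 36696 genes, with no filter on low counts) and limma-voom 13 (6.46%).

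Single libraries moved these counts. The background given with each count is the share of all genes lower at that threshold in the same refit. The 16 genes became 24 without E1 replicate 2 (background 5.53%, median of the 33 -1.07) and 11 without E1 replicate 1 (5.24%). They became 26 (4.82%, median -1.11) without the 3 libraries rich in Slc17a7. That omission leaves E1 with replicates 1 and 4 (n = 2), the E1 libraries with the highest mean for the 33 genes. The 8 genes in KI-96 against WT became 16 without WT replicate 4 (4.79%), 14 without WT replicate 3 (4.90%), 13 without E1 replicate 2 (4.69%) and 5 without WT replicate 7 (3.78%). They became 4 without KI-96 replicate 1 (3.58%) or without KI-96 replicate 3 (5.37%). With the Y-linked class as a covariate, which leaves WT replicate 1 as the only WT library of the mutants' class, they became 0 (0.449%) and the median was -0.25. In E1 against WT, 11 genes were higher (background 2.96%) and 0 lower (3.05%) at an unadjusted p under 0.05 without E1 replicate 2, and the median was 0.49. The 2 lower genes there became 0 without E1 replicate 3 (3.69%) and 1 without WT replicate 4 (3.75%). Without E1 replicate 4 edgeR called 46 genes higher and 211 lower in E1 than in WT over the whole table, 0 of them among the 33.

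The 33 genes were high and low in the same libraries. The mean log2 CPM over the 33 genes was 2.05, 2.50, 1.65, 1.50, 2.29, 2.69 and 2.77 in WT replicates 1 to 7. In E1 it was 2.83, 1.53, 2.47 and 2.77, and in KI-96 1.31, 1.86, 1.33 and 1.92. WT and E1 each held high and low libraries and overlapped throughout, while the KI-96 libraries lay in the lower part of the WT range and below it. E1 replicate 1 had the highest value of all 15 libraries for 14 genes and E1 replicate 4 for 6, while KI-96 replicate 1 had the lowest for 9 and KI-96 replicate 3 for 8. E1 replicate 2 went with the low libraries and had the lowest value of all 15 for 6 genes.

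**Figure D2:**
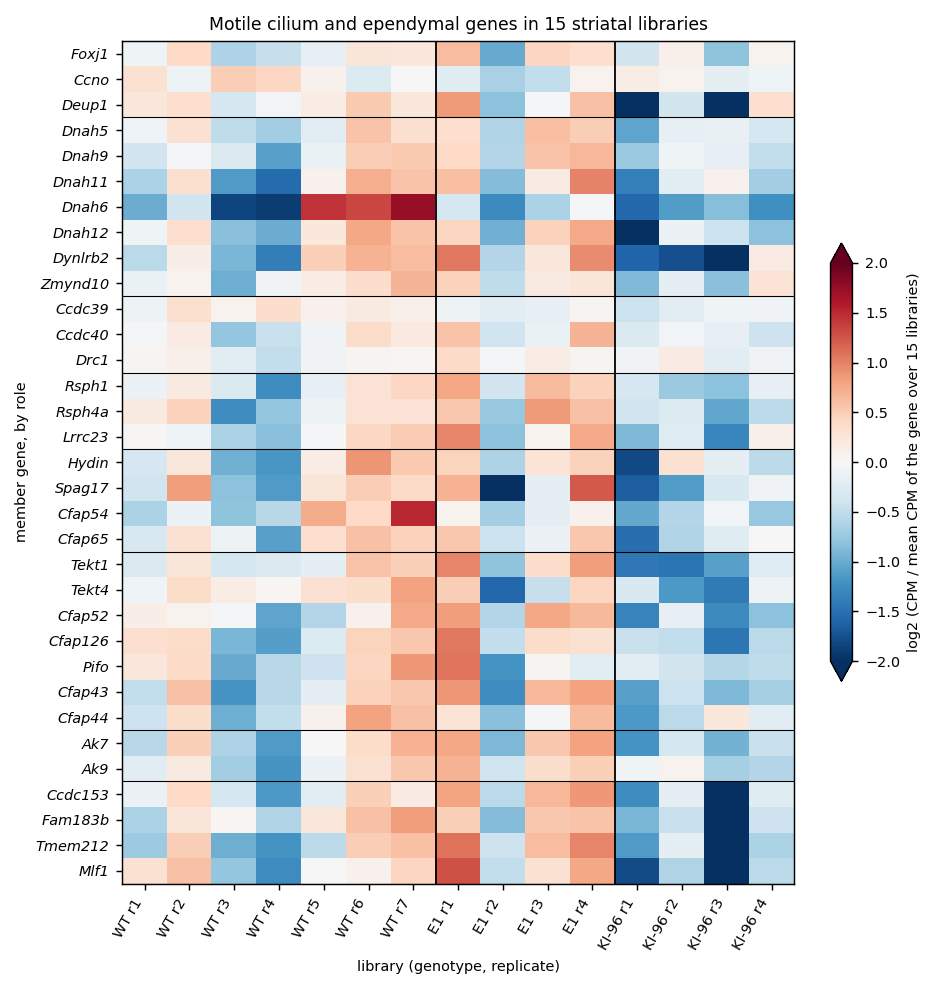
Each cell gives the log2 of a gene's CPM in 1 library over its mean in all 15 libraries (colour, ending at -2 and 2), with genes in rows by role and libraries in columns by genotype and replicate. Whole columns are high (E1 replicates 1 and 4, WT replicates 6 and 7) or low (KI-96 replicates 1 and 3, WT replicate 4, E1 replicate 2), and Ccno and Ccdc39 depart from the columns.

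The spread within WT alone was wide. The coefficient of variation over the 7 WT libraries had a median of 36.6% for the 33 genes, from 10.8% for Ccdc39 to 88.7% for Dnah6, beside 15.1% for all genes tested. Over the 15 libraries, 28 of the 33 genes had a Pearson r above 0.7 with the mean of the other 32. The highest was Ak7 (0.97), and the lowest were Ccno (-0.26) and Ccdc39 (0.35). These r are taken over libraries that differ in genotype, in cortical markers and in total count. Corrected for exon length, the WT levels (TPM, a share of all transcripts) ran from 0.508 ± 0.231 (SD, n = 7) for Spag17 to 30.4 ± 3.88 for Drc1. Foxj1 (30.2 ± 7.71 TPM) did not differ from Drc1 beyond the spread. Below them came Ccdc153 (18.8 ± 6.36 TPM), Rsph1 (17.1 ± 5.40 TPM), Tmem212 (15.6 ± 7.97 TPM) and Fam183b (14.7 ± 5.38 TPM), which also overlapped each other.

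Among the regulators, Foxj1 encodes the forkhead factor that drives the motile cilium programme (chromosome 11, 116330704 to 116335399, build GRCm38). It lay between 14.8 and 30.1 CPM in WT with a median of 21.4. In E1 it stood at 34.9, 11.3, 30.6 and 28.7 CPM, and in KI-96 at 17.6, 24.4, 13.0 and 23.9 CPM. The ranges of the 3 groups overlapped, with E1 holding both the highest and the lowest of the 15 values. Its log2 fold change was 0.24 (SE 0.26) in E1 against WT, -0.18 (SE 0.27) in KI-96 against WT and -0.42 (SE 0.30) in KI-96 against E1. The exact two-sided permutation p of log2 CPM was 0.636, 0.467 and 0.429 in that order, each 0.636 after Benjamini-Hochberg adjustment over the 3 comparisons, where the smallest possible p is 0.00303 for 7 against 4 libraries and 0.0286 for 4 against 4.

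Ccno encodes cyclin O, needed for multiplying centrioles in multiciliated cells (chromosome 13, 112987802 to 112990777). Its WT values ran from 3.85 to 6.58 CPM with a median of 4.96, its E1 values were 3.95, 2.98, 3.30 and 4.88 CPM, and its KI-96 values 5.17, 4.87, 4.09 and 4.37 CPM. Ccno was thus highest in WT replicate 3 (6.58 CPM), a library among the 3 lowest for 14 of the 33 genes, and 3 of 4 E1 libraries were at or under 3.95 CPM. In E1 against WT the log2 fold change of Ccno was -0.45 (SE 0.18, edgeR adjusted p = 0.519). In KI-96 against E1 it was the single gene of the 33 with a positive value, 0.29 (SE 0.21, edgeR adjusted p = 0.521). Deup1, the scaffold of the deuterosome on which new centrioles form, was the shallowest of the genes, with 1 to 24 counts per library. It stood at 0.0728 and 0.0546 CPM in KI-96 replicates 1 and 3 (1 count each), 0.461 and 0.749 in replicates 2 and 4, 0.337 to 1.08 in E1 and 0.470 to 0.855 in WT. Deup1 had a log2 fold change of -1.02 (SE 0.55, edgeR adjusted p = 0.406) in KI-96 against E1.

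The dynein group holds 5 heavy chains, a light chain and an assembly factor. All 7 were negative in KI-96 against E1 (median -0.69) and in KI-96 against WT (median -0.43), and 6 of 7 were positive in E1 against WT (median 0.25). Dnah5, Dnah9 and Dnah11 encode outer arm heavy chains. In KI-96 against E1 their log2 fold changes were -0.66 (SE 0.29), -0.69 (SE 0.31) and -0.81 (SE 0.48), with edgeR adjusted p-values of 0.322, 0.326 and 0.438. Dnah12, an inner arm heavy chain, had -1.002 (SE 0.45) in the same comparison. Dynlrb2, a small roadblock light chain, was measured at 3.69, 1.18, 2.07 and 3.41 CPM in E1 and at 0.582, 0.527, 0.328 and 1.998 CPM in KI-96. Only KI-96 replicate 4 reached the E1 range, and the log2 fold change of Dynlrb2 was -1.53 (SE 0.55, edgeR adjusted p = 0.257). Zmynd10, a cytoplasmic factor that preassembles dynein arms, had -0.45 (SE 0.32).

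Dnah6, another inner arm heavy chain (chromosome 6, 73017606 to 73221651), did not follow the other dynein genes. It stood at 41.1, 38.1 and 50.6 CPM in WT replicates 5, 6 and 7, and at 7.64, 11.7, 4.23 and 4.06 CPM in WT replicates 1 to 4. In E1 it was 11.9, 6.23, 9.73 and 14.8 CPM and in KI-96 5.09, 6.98, 8.41 and 6.50 CPM. The 3 WT libraries were therefore above all other 12 by a wide gap, and the remaining WT libraries overlapped both mutant groups. Cfap54, a central pair protein gene (chromosome 10, 92775619 to 93081618), split in the same libraries. It was 22.2, 17.5 and 37.7 CPM in WT replicates 5 to 7 and 6.55 to 14.1 CPM in the other 12.

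**Figure D3:**
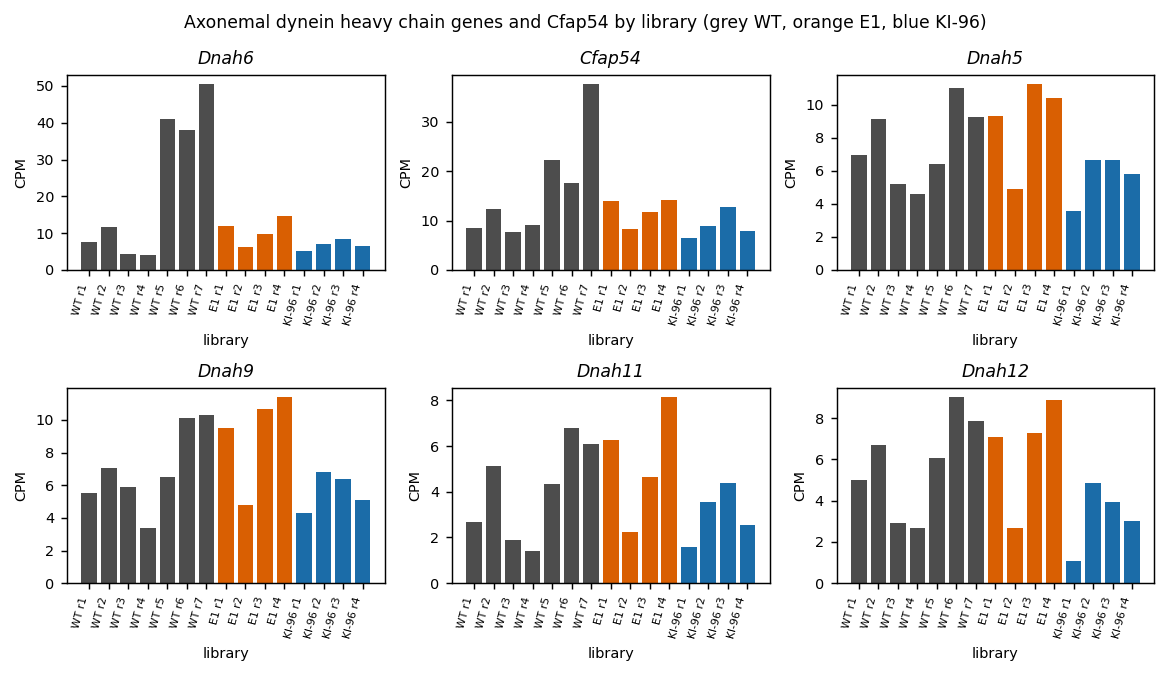
CPM (vertical axes, from 0) of the axonemal dynein heavy chain genes and Cfap54 in each library (horizontal axes), coloured by genotype. Dnah6 and Cfap54 are highest in WT replicates 5, 6 and 7 (38.1 to 50.6 and 17.5 to 37.7 CPM), while in the other dynein genes shown those 3 libraries overlap the remaining 12.

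Dnah6 and Cfap54 were the only genes of the 33 above all other libraries in those 3, where 130 of the 18278 genes tested were and 156 were below all others. Only 5 of the 18278 genes tested had a lowest value there above 2 times the highest elsewhere, chosen after their values were seen: Dnah6, Col5a2, Ptgfr, Eno1b and Tma7-ps. The genes next to Dnah6 and Cfap54 did not split this way: Suclg1 ran from 77.2 to 90.3 CPM in WT replicates 5 to 7 and from 67.5 to 94.9 elsewhere. Gm20560, annotated antisense within Dnah6, was 1.18 to 2.15 CPM there and at most 0.735 elsewhere, and without knowing the strand its reads and those of Dnah6 cannot be told apart. The log2 fold change of Dnah6 was -1.09 (SE 0.68) in E1 against WT and -1.74 (SE 0.71) in KI-96 against WT, and that of Cfap54 was -0.46 (SE 0.39) and -0.87 (SE 0.40). Without WT replicates 5, 6 and 7 the E1 values became 0.62 for Dnah6 and 0.35 for Cfap54, and the KI-96 values against WT became -0.03 and -0.06. The same omission took the median of the 33 genes in KI-96 against WT to -0.31 and in E1 against WT to 0.59, and left 1 of the 33 lower in KI-96 than in WT at an unadjusted p under 0.05 (background 2.03%).

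The 3 genes of rulers and nexin links had the smallest group median in KI-96 against E1, -0.19. Ccdc39 encodes, with Ccdc40, the ruler that spaces dynein arms and spokes along the doublet. The Ccdc39 level was 22.1 to 30.3 CPM in WT (median 25.5), 22.2, 20.6, 21.2 and 24.8 CPM in E1, and 17.7, 20.5, 22.5 and 22.6 CPM in KI-96. Both mutant groups lay in the lower part of the WT range or below it. Ccdc39 had log2 fold changes of -0.34 (SE 0.10, edgeR adjusted p = 0.326) in KI-96 against WT, -0.25 (SE 0.10, adjusted p = 0.519) in E1 against WT and -0.09 (SE 0.12) in KI-96 against E1. With the Y-linked class as a covariate the values against WT were -0.09 in KI-96 and 0.00652 in E1. Ccdc39 (chromosome 3, 33812362 to 33844310) overlaps Ttc14 on the opposite strand, which stood at 80.8 to 169.5 CPM, so its counts are uncertain without the strand.

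Drc1 encodes a subunit of the nexin-dynein regulatory complex (chromosome 5, 30281388 to 30366695). It was 17.1 to 25.8 CPM in WT (median 24.8), 31.5, 23.5, 26.8 and 25.1 CPM in E1, and 23.0, 27.1, 20.6 and 23.1 CPM in KI-96. All 3 groups overlapped. On the log2 scale Drc1 had a fold change of 0.21 (SE 0.12) in E1 against WT, of 0.02 (SE 0.12) in KI-96 against WT and of -0.19 (SE 0.13) in KI-96 against E1. The KI-96 against WT value, the single positive one of the 33 there, turned to -0.09 with the Y-linked class as a covariate. Ccdc40 had 0.28 (SE 0.22), -0.19 (SE 0.23) and -0.48 (SE 0.26) in the same order.

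All 3 radial spoke genes had positive log2 fold changes in E1 against WT (0.41 to 0.49) and negative ones in KI-96 against E1 (-0.96 to -0.87). In the second, all 3 had an unadjusted p under 0.05 (background 6.42% of all genes lower). Rsph1, a spoke head protein gene (chromosome 17, 31255019 to 31277383), was 2.92 to 9.24 CPM in WT with a median of 6.37. In E1 it was 11.8, 5.34, 10.7 and 9.55 CPM, and in KI-96 5.46, 4.15, 3.93 and 6.16 CPM. Of the E1 libraries 3 were above every WT library and E1 replicate 2 lay within the KI-96 range. In log2 terms Rsph1 differed by 0.49 (SE 0.25, edgeR adjusted p = 0.604) in E1 against WT and by -0.92 (SE 0.30, adjusted p = 0.228) in KI-96 against E1. Rsph4a, a second spoke head gene, and Lrrc23, a further spoke component, had -0.96 (SE 0.35) and -0.87 (SE 0.38) in KI-96 against E1.

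The 4 central pair genes were negative in both KI-96 comparisons, with medians of -0.61 against E1 and -0.65 against WT. Hydin, whose loss in mice causes hydrocephalus, had a log2 fold change of -0.57 (SE 0.44) in KI-96 against E1, Spag17 -0.93 (SE 0.58), Cfap65 -0.66 (SE 0.34) and Cfap54 -0.42 (SE 0.44). None of the 4 reached an unadjusted p of 0.05 there (background 6.42% of all genes lower).

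Genes of proteins inside or on the doublet microtubules held some of the largest differences. All 7 were negative in KI-96 against E1 (median -1.09) and in KI-96 against WT (median -0.76). Tekt1 encodes a tektin, a filament protein of the doublet wall (chromosome 11, 72344722 to 72362442). Its levels were 2.00 to 3.78 CPM in WT (median 2.21), 5.02, 1.46, 3.24 and 4.51 CPM in E1, and 0.946, 0.921, 1.20 and 2.12 CPM in KI-96. KI-96 replicates 1 to 3 were below every other library, whereas replicate 4 was within the WT and E1 ranges. The log2 fold change of Tekt1 was -1.42 (SE 0.37, edgeR adjusted p = 0.178) in KI-96 against E1, -1.01 (SE 0.34, adjusted p = 0.361) in KI-96 against WT and 0.41 (SE 0.31) in E1 against WT. Without KI-96 replicate 4 its edgeR adjusted p in KI-96 against E1 was 0.0458, with a log2 fold change of -1.79. Over all genes that refit called 46 lower (0.247%) and 82 higher. Over the other settings and omissions the value of Tekt1 stayed negative.

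Cfap52, a protein gene of the doublet lumen, had 0.886 to 3.11 CPM in WT (median 1.94), 3.28, 1.24, 3.14 and 2.89 CPM in E1, and 0.728, 1.65, 0.764 and 1.04 CPM in KI-96. E1 replicate 2 was the only E1 library within the KI-96 range. Its log2 fold change in KI-96 against E1 was -1.33 (SE 0.39, edgeR adjusted p = 0.212). Tekt4, a second tektin gene, was the only one of the 33 whose KI-96 and WT libraries did not overlap (background 0.651% lower, 0.635% higher): 0.437 to 1.08 CPM in KI-96 against 1.10 to 2.03 in WT. The margin was 1.08 CPM in KI-96 replicate 4 against 1.10 in WT replicate 1, the WT library of the mutants' Y-linked class. Counts were as low as 8 in KI-96 replicates 2 and 3. Tekt4 had -0.93 (SE 0.36, edgeR adjusted p = 0.394) in KI-96 against WT, and E1, at 0.393 to 1.64 CPM, overlapped both.

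Cfap44 encodes, with Cfap43, a tether that links an inner dynein to the doublet. Cfap44 (chromosome 16, 44394796 to 44482428) was 5.29 to 18.1 CPM in WT (median 11.0), 12.6, 5.78, 10.1 and 16.1 CPM in E1 and 4.66, 7.11, 12.0 and 8.87 CPM in KI-96, so that all groups overlapped. Its log2 fold change was -0.01 (SE 0.33) in E1 against WT and -0.44 (SE 0.38) in KI-96 against E1. Cfap43 had a larger value in the latter, -1.22 (SE 0.42, edgeR adjusted p = 0.243), with 9.27, 2.13, 8.03 and 8.82 CPM in E1 against 2.40 to 3.75 in KI-96. Cfap126, a doublet lumen protein gene, had -1.09 (SE 0.39) and Pifo, known from the disassembly of primary cilia, -0.57 (SE 0.43).

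Of the adenylate kinases, enzymes that keep nucleotide levels along the cilium, Ak7 tracked the other genes most closely. Ak7 (chromosome 12, 105705976 to 105782447) was 3.49 to 12.4 CPM in WT (median 7.67), 13.1, 4.10, 11.1 and 13.4 CPM in E1, and 3.35, 5.99, 3.98 and 5.66 CPM in KI-96. Here again 3 E1 libraries were above all KI-96 libraries and E1 replicate 2 lay within the KI-96 range. The log2 fold change of Ak7 was -1.13 (SE 0.40, edgeR adjusted p = 0.252) in KI-96 against E1, and that of Ak9 was -0.63 (SE 0.34).

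The 4 ependymal markers of less settled role had the most negative group median in KI-96 against E1, -1.47. All 4 had an unadjusted p under 0.05 there (background 6.42% of all genes lower). All 4 are short, from 567 to 2036 exonic bases, and short genes were low in KI-96 replicate 3. Without that library their median in KI-96 against E1 was -1.14, again the most negative of the groups. In KI-96 against WT their median went from -0.98 to -0.64. The central pair genes then had the most negative median against WT, -0.75. Ccdc153 (chromosome 9, 44240676 to 44247306) was 5.00 to 15.4 CPM in WT (median 10.2), 19.2, 7.58, 17.6 and 20.1 CPM in E1 and 4.66, 9.68, 2.02 and 9.41 CPM in KI-96. Its E1 values apart from replicate 2 were above every WT and KI-96 library. Ccdc153 had a log2 fold change of -1.32 (SE 0.43, edgeR adjusted p = 0.237) in KI-96 against E1 and 0.57 (SE 0.37) in E1 against WT.

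Mlf1 (chromosome 3, 67374097 to 67400003), a gene first known from a leukaemia fusion, was 0.625 to 2.26 CPM in WT (median 1.60), 3.64, 1.07, 1.86 and 2.57 CPM in E1 and 0.437, 0.987, 0.164 and 1.04 CPM in KI-96. It was the only one of the 33 whose KI-96 and E1 libraries did not overlap (background 2.50% lower, 2.29% higher), by a margin of 1.04 against 1.07 CPM. Mlf1 had a log2 fold change of -1.77 (SE 0.50, edgeR adjusted p = 0.206) against E1 and -1.20 (SE 0.46, adjusted p = 0.388) against WT, on counts as low as 3 in KI-96 replicate 3. Mlf1, Dnah11, Spag17 and Cfap43 overlap a protein-coding gene on the other strand, so their counts are uncertain too. Fam183b (chromosome 11, 58792797 to 58801960) was 1.33 to 3.68 CPM in WT (median 2.42), 2.87, 1.12, 2.98 and 3.04 CPM in E1 and 1.09, 1.51, 0.273 and 1.54 CPM in KI-96. KI-96 overlapped WT in its upper libraries and E1 in replicate 2 alone. The log2 fold change of Fam183b was -1.09 (SE 0.40, edgeR adjusted p = 0.376) against WT and -1.17 (SE 0.44, adjusted p = 0.272) against E1, and that of Tmem212, a membrane protein gene, -0.87 (SE 0.49) and -1.63 (SE 0.54).

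In KI-96 replicate 3 the values moved with transcript length. On log2 CPM against the mean of the other KI-96 libraries, all 16 of the 16 shorter genes were lower in that library and 12 of the 16 longer genes were higher, with Deup1 at the middle length. Tmem212, with 716 exonic bases, was at -2.59 and Fam183b, with 567, at -1.97, while Cfap44, with 8405, was at 0.84 and Dnah11, with 14458, at 0.81. The same order ran through all 14770 protein-coding genes tested: the median was -0.49 in the 3693 shortest genes and 0.25 in the 3691 longest. Relative to the mean of all libraries, the longest genes minus the shortest gave 0.70 in KI-96 replicate 3 and -0.23 to 0.10 in the other 14. E1 replicates 1 to 4 were at -0.19, -0.19, -0.05 and -0.16. Without KI-96 replicate 3 the median of the 33 genes in KI-96 against E1 was -0.75, and in KI-96 against WT it was -0.53. Against WT the median of the 16 shorter genes went from -0.74 to -0.50 and that of the 16 longer from -0.49 to -0.65, so that the longer genes then had the more negative median. Against E1 the shorter went from -1.01 to -0.84 and the longer from -0.66 to -0.75. In E1 against WT, with all libraries, the shorter genes had a median of 0.39 and the longer 0.23.

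**Figure D4:**
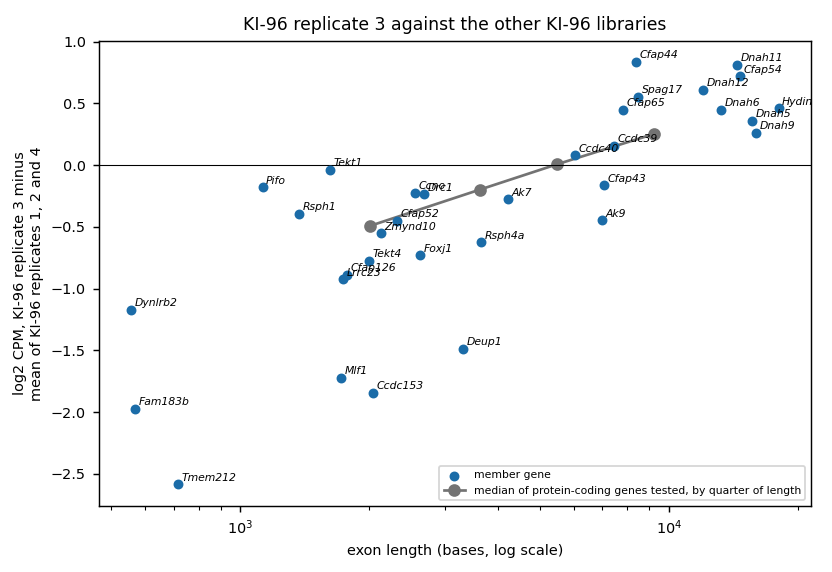
Log2 CPM in KI-96 replicate 3 minus the mean of KI-96 replicates 1, 2 and 4 (vertical axis) against exon length in bases (horizontal log axis), for the 33 genes (points) and as the median of the tested protein-coding genes in 4 bins of length (grey line). Short genes such as Tmem212 (-2.59) lie below 0 and long ones such as Dnah11 (0.81) above it.

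Other genes of the motile cilium, listed apart from the 33, lay mostly on the same side of 0 as the 33. Of 73 tested, 57 were positive in E1 against WT (median 0.22), 7 in KI-96 against WT (median -0.39) and 7 in KI-96 against E1 (median -0.60), and 27 were lower at an unadjusted p under 0.05 in the last (background 6.42%). None passed the adjusted threshold. The 2 with the smallest p in KI-96 against E1 were Fhad1 at -1.18 (SE 0.25) and Lrrc34 at -2.41 (SE 0.60), each with an edgeR adjusted p of 0.178. Against WT they were Lrrc34 at -2.41 (SE 0.56, adjusted p = 0.241) and Cfap69 at -0.50 (SE 0.14, adjusted p = 0.314) in KI-96. In E1 they were Fhad1 at 0.56 (SE 0.21, adjusted p = 0.492) and Cfap45 at 0.61 (SE 0.25, adjusted p = 0.519).

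Genes of intraflagellar transport and the primary cilium, which neurons and glia also carry, were flat: their mean log2 CPM lay between 4.71 and 4.87 in all 15 libraries. Of 42 tested, 14, 18 and 20 were positive in E1 against WT, KI-96 against WT and KI-96 against E1, with medians of -0.04, -0.05 and -0.02. In KI-96 against E1 Bbs5, a BBSome subunit gene, had -0.47 (SE 0.12, edgeR adjusted p = 0.178) and Cep290, of the transition zone, 0.44 (SE 0.15, adjusted p = 0.246). Among the 19 tested regulators of multiciliated cells, 10, 4 and 7 were positive (medians 0.00, -0.14 and -0.05). The smallest p in KI-96 against E1 belonged to E2f5, a partner of the early regulators, at -0.54 (SE 0.14, adjusted p = 0.186), and to its dimer partner gene Tfdp1 at -0.32 (SE 0.09, adjusted p = 0.212). Rfx3, at 51.1 to 88.9 CPM, overlapped between all groups.

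**Figure D5:**
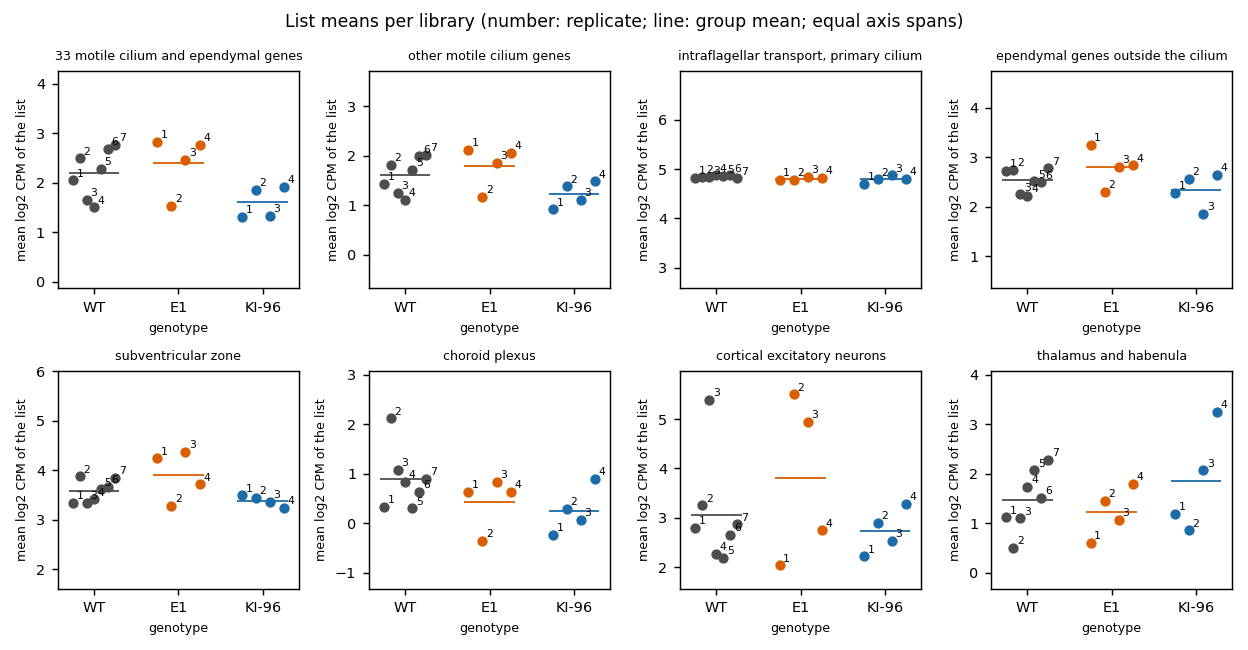
Mean log2 CPM of each gene list (vertical axes, equal spans) per library by genotype (horizontal axes), with the replicate number at each point and a line at the group mean. Over all libraries the 33 genes run from 1.31 to 2.83, the other motile cilium genes from 0.92 to 2.12 and the cortical list from 2.04 to 5.50. The intraflagellar transport list stays between 4.71 and 4.87. KI-96 has the lowest group mean in each list shown except thalamus and habenula.

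Ependymal genes that are not part of the cilium were read as a further list. Its genes are not confined to ependymal cells, so the list is no measure of that layer alone. Of 7 tested, 6 were positive in E1 against WT (median 0.33), 2 in KI-96 against WT (median -0.33) and 0 in KI-96 against E1 (median -0.64). In the last, 4 were lower at an unadjusted p under 0.05 by edgeR (background 6.42% of all genes). Cd24a, a surface antigen of ependymal cells and neuroblasts, was 10.1 to 21.7 CPM in WT, 10.00 to 35.9 in E1 and 6.61 to 15.5 in KI-96, with a log2 fold change of -1.08 (SE 0.35, edgeR adjusted p = 0.235) in KI-96 against E1. Tm4sf1 had -0.67 (SE 0.22, adjusted p = 0.231). Mia was at or under 0.116 CPM in all libraries. The mean log2 CPM of the list was 2.22 to 2.77 in WT, 2.30 to 3.25 in E1 and 1.85 to 2.64 in KI-96.

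Progenitors and neuroblasts of the subventricular zone lie just under the ependyma. Of their 16 markers, 14 were positive in E1 against WT (median 0.40), 5 in KI-96 against WT (median -0.15) and 3 in KI-96 against E1 (median -0.51). The list mean was 3.34 to 3.88 log2 CPM in WT, 3.29 to 4.38 in E1 and 3.24 to 3.50 in KI-96. In KI-96 against E1 Dlx1, a homeobox gene of striatal and olfactory interneuron precursors, had -1.08 (SE 0.18, edgeR adjusted p = 0.108), and Cdk1, a mitotic kinase gene, -1.87 (SE 0.46, adjusted p = 0.178). Of 16 choroid plexus markers, 1, 2 and 4 were positive in the 3 comparisons (medians -0.42, -0.77 and -0.10). Ttr, the most abundant of them, ran from 20.1 to 346 CPM in WT, 12.6 to 53.7 in E1 and 3.28 to 60.5 in KI-96. The list mean was 0.30 to 2.12 log2 CPM in WT, -0.36 to 0.84 in E1 and -0.24 to 0.90 in KI-96, and Folr1 was at 0 in KI-96 replicate 1. The part of the choroid plexus and the subventricular zone in the differences of the 33 genes was not tested.

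Markers of neighbouring tissue also differed between libraries. Of 15 markers of cortical excitatory neurons 13, 5 and 3 were positive in E1 against WT, KI-96 against WT and KI-96 against E1, with medians of 1.00, -0.70 and -1.70. Their mean log2 CPM was 2.19 to 5.39 in WT, 2.04 to 5.50 in E1 and 2.23 to 3.29 in KI-96. The difference of the 33 genes between KI-96 and E1 was larger without the 3 libraries richest in them, which leaves the 2 E1 libraries highest for the 33 genes (means of 2.83 and 2.77 log2 CPM, against 1.53 and 2.47 in those left out). Of 9 thalamic and habenular markers tested, 1, 8 and 9 were positive (medians -0.45, 0.91 and 1.38), with Tcf7l2 at 25.8 and 39.1 CPM in KI-96 replicates 3 and 4 and at 5.95 to 13.6 in the other 13. Of 9 septal markers 2, 6 and 8 were positive (medians -0.26, 0.15 and 0.30). What these differences in tissue contribute was not tested.

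Markers of cell types resident in the striatum were read the same way. Of 14 spiny projection neuron markers 10, 6 and 3 were positive in E1 against WT, KI-96 against WT and KI-96 against E1, with medians of 0.11, -0.10 and -0.09. The 15 astrocyte markers had medians of -0.17, -0.10 and 0.07 (2, 6 and 8 positive), and the 10 oligodendrocyte markers -0.35, -0.15 and 0.20 (0, 1 and 9 positive). None of the markers in these lists passed the adjusted threshold of edgeR in any comparison.

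Outside the 33, the 10 named genes most like their mean over the 15 libraries were Ttc21a (Pearson r 0.96), Enkur, Cfap61, Frmpd2, Armc4, Spata18, Ccdc146, Odf3b, Daw1 and Cdhr3 (0.94). Only genes that average 1 CPM or more were considered, and the r describe 15 libraries of 3 genotypes. Enkur, Cfap61, Armc4, Spata18 and Ccdc146 were also in the list of other motile cilium genes, and Armc4 and Daw1 encode factors for docking and transport of outer dynein arms. The other 5 were in none of the lists.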

How the data were processed

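RNA was sequenced from the striatum of 15 mice. The authors deposited a table of raw read counts by gene, as whole numbers without normalization. STAR, HTSeq, DESeq2 1.24.0 and build GRCm38 are named, with no role or order, per the submitters' processing notes. The sources used here do not say whether strand was used, so overlapping and antisense genes are uncertain. Of 54232 identifiers, 54165 matched a GRCm38 annotation without their version (52566 with it), which gave symbols, coordinates and exon lengths.

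Genes were filtered by group with edgeR 4.0.16 (R 4.3.3, minimum count 10), normalized by trimmed mean of M-values and fitted with a robust quasi-likelihood model over all 15 libraries; the 3 contrasts were adjusted by Benjamini-Hochberg over 18278 genes, threshold 0.05. CPM used normalized library sizes and log2 CPM a prior count of 2; TPM used exon length and serves to compare genes. DESeq2 1.42.0 and limma-voom (limma 3.58.1), another normalization, no filter, fits of 2 groups, a replicate block, a Y-linked covariate and omitted libraries were alternatives. Motifs were counted with Python 3.11.15. The pipeline was checked on simulated counts.

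The 33 genes and the other lists were chosen with earlier results of these data known. Given by library were Foxj1, the most abundant gene of each role and the 3 smallest p of each comparison; from each other list, values of genes with the smallest p; and the 10 genes most like the mean. Further genes were added for their values. No library repeated another: over 33 pairs of the same genotype the lowest chi-square per degree of freedom was 8.65. Each library has its own mouse number, and p-values measure the spread between these mice.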

Additional observations from a re-analysis of the deposited data

Results flagged for a closer look

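In groups of 4 to 10 libraries, a single value far from the rest was sought for each of the 33 genes in each genotype, 99 groups in all, with Dixon's gap-to-range ratio at the 95% level; chance marks about 1 group in 20. Of these, 3 groups were marked, all of 4 libraries. Dynlrb2 stood at 1.998 CPM in KI-96 replicate 4, with the next library at 0.582 (gap over range 0.848). Cfap126 stood at 0.983 CPM in KI-96 replicate 3, with the next at 1.83 (0.865). Fam183b stood at 1.12 CPM in E1 replicate 2, with the next at 2.87 (0.909). KI-96 replicate 3 is the library whose values moved with exon length, and E1 replicate 2 was low for most of the genes.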

How the results depend on the processing

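The count of the 33 genes past the adjusted threshold was 0 in every comparison under all 24 settings, except in KI-96 against E1, where it was 2 with DESeq2 and 0 to 1 when single libraries were left out (1 without KI-96 replicate 4). The refit without KI-96 replicate 4 called 46 of all genes lower (0.247%) and 82 higher in that comparison. The median log2 fold change kept its sign: 0.12 to 0.49 in E1 against WT, -0.78 to -0.50 in KI-96 against WT and -1.07 to -0.58 in KI-96 against E1 with single libraries left out. The labels do not say whether the replicate numbers pair the mice. The correlations of same-numbered libraries ran from -0.10 to 0.19, and 4 of 12 were highest with their own number. Such correlations cannot settle whether the numbers pair the mice. With the replicate block the medians were 0.64, -0.30 and -0.85, with 0 of the 33 genes called, and the calls over all genes were 4, 6 and 0.

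Of the 936 values of the 14 genes given by library, less Foxj1, 908 kept their direction, and 9 gene comparisons turned somewhere. Beyond the overlap of settings given next, the cause was not tested. WT replicates 5, 6 and 7 share their numbers with no E1 or KI-96 library, so the replicate block takes them up alone. That fit is therefore close to leaving them out and is no separate check on that omission. In E1 against WT, the replicate block gave 0.67 for Dnah6, 0.36 for Cfap54 and 0.39 for Cfap44. The Y-linked covariate gave 0.48, 0.49 and 0.52 for these and 0.00652 for Ccdc39. Without WT replicates 5, 6 and 7, an omission chosen after seeing the data, they were 0.62, 0.35 and 0.40, and without the 3 cortex-rich libraries Cfap44 was 0.23. With single libraries left out Cfap44 ran from -0.25 to 0.20 (turning positive without WT replicates 2, 6 or 7 at 0.03, 0.14 and 0.08, or E1 replicates 2 or 3 at 0.20 and 0.03). Fam183b ran from -0.0220 to 0.33 (negative at -0.01 without WT replicates 1 or 4 or E1 replicate 3, and at -0.0220 without E1 replicate 4). In KI-96 against WT, Dnah6 was 0.00686 with the replicate block, and the Y-linked covariate gave -0.0945 for Drc1, 0.0717 for Cfap54 and 0.0780 for Cfap44. Drc1 was also -0.00903 without the cortex-rich libraries and ran from -0.0546 to 0.0788 with single libraries left out (-0.00 without WT replicate 3, -0.04 without WT replicate 4 and -0.0546 without KI-96 replicate 2). Depth limits Deup1, Spag17 and Mlf1, with 1 to 3 counts in their lowest library.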
